A study of Mus musculus with 8 samples.

Results

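Vitamin C alone was compared with no supplement in mouse embryonic stem cells (ESCs) on day 2 and on day 5, at single CpG sites. The members were the CpGs on chromosomes 1 to 19 with at least 10 reads in each of 4 libraries, which gave 649663 CpGs of the 894432 listed in any of the 4. The series holds 8 libraries, of which these 4 were used. The cells were ESCs of mouse strain 129/SvP plated at low density in FBS/LIF, that is, fetal bovine serum with the cytokine leukaemia inhibitory factor, which all groups share. The untreated group received nothing more, and the vitamin C group received VitaminC at 500 µM, each for 2 or 5 days. Every group is 1 library, so no group has a replicate, and each comparison below is between 2 libraries of the same day. Methylation calls give no expression markers with which to check the labelled cell type. The labels name no culture or batch, so treatment cannot be told apart from anything else in which 2 libraries differ. DNA was read by reduced representation bisulfite sequencing (RRBS), which sequences CpG-rich restriction fragments after unmethylated cytosine has been converted.

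Methylated CpGs carry a methyl group set by the DNA methyltransferases, and the pattern is copied onto the new strand when DNA replicates. The TET dioxygenases oxidise 5-methylcytosine to 5-hydroxymethylcytosine and further forms, which can be lost by dilution or repair, and vitamin C is a cofactor that keeps the iron of these enzymes reduced. In serum-grown ESCs most CpG islands are unmethylated, while the promoters of many genes of the germ line are methylated and silent. Bisulfite sequencing reads 5-methylcytosine and 5-hydroxymethylcytosine alike, so the values below are the sum of both.

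The promoters below had a lower mean in both vitamin C libraries, and the mean of Gm16059 stayed high in them. The letters are RefSeq's (assembly GRCm38.p6), the 250 bases before the gene's start, and capitals mark the CpGs with a value in all 4 libraries. Capitals do not mark a direction: in Hormad1 and Gm16059 some of them were not lower on both days. Sycp1 and Hormad1 encode meiotic chromosome proteins, and Asz1 a protein of the piRNA pathway of germ cells. Atf7ip encodes a partner of the histone methyltransferase SETDB1, and Gm16059 is a predicted gene whose promoter stayed methylated. Their positions on mouse build mm9, found from the spacing of CpGs, were chr3:102740024-102740273 for Sycp1 (minus strand) and chr3:95363349-95363598 for Hormad1 (plus strand). Asz1 was placed at chr6:18059062-18059311 (minus), Atf7ip at chr6:136467122-136467371 (plus) and Gm16059 at chr15:79256662-79256911 (plus). Promoter values below also take in the first 50 bases after the start, which hold 8 of the 12 CpGs of Atf7ip and 2 of the 6 of Asz1.
Sycp1: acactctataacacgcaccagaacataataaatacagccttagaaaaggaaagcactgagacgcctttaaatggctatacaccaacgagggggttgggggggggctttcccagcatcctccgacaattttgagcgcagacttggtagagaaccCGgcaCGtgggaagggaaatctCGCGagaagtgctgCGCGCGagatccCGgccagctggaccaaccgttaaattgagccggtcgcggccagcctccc
Hormad1: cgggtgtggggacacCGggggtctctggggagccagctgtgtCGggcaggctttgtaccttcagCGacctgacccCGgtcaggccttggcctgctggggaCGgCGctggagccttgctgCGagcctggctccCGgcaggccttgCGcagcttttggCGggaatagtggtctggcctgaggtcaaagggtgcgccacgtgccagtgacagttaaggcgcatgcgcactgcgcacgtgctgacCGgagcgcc
Asz1: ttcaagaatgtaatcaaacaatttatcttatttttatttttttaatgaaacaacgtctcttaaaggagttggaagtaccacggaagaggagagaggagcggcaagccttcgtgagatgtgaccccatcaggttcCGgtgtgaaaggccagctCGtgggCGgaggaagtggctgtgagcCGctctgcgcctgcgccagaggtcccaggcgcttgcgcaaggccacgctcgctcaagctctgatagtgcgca
Atf7ip: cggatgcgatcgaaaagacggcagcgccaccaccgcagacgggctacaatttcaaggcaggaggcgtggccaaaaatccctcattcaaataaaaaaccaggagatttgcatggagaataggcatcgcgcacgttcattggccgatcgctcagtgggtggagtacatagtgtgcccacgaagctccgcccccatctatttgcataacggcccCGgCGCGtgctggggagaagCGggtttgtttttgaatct
Gm16059: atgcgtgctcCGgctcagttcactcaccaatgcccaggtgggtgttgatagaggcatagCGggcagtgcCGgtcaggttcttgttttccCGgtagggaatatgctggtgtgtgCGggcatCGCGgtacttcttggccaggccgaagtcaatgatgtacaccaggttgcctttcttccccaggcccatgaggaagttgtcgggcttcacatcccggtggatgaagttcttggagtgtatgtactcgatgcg

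Mean methylation over the 649663 CpGs was 19.55% in untreated cells and 17.2% with vitamin C on day 2. On day 5 it was 21.8% in untreated cells and 16.5% with vitamin C. The difference, vitamin C minus untreated, was therefore -2.32 percentage points on day 2 and -5.28 on day 5. In DNA from bulk cells, loss in some cells and partial loss in all cells cannot be told apart. From day 2 to day 5 the untreated mean was higher by 2.25 points and the vitamin C mean differed by -0.720, so most of the wider gap on day 5 was a higher untreated level. The vitamin C mean was 88.2% of the untreated mean on day 2 and 75.8% on day 5. Both pairs had the same sign, and a sign-flip test over 2 pairs cannot give a two-sided p below 0.5. The difference was negative on each of the 19 chromosomes, from -2.67 to -2.14 on day 2 and from -5.81 to -4.83 on day 5. Pooled over reads, methylation was 14.34% (95% Wilson interval 14.33 to 14.35) untreated and 12.55% (12.54 to 12.57) with vitamin C on day 2. On day 5 the pooled levels were 17.69% (17.68 to 17.71) and 11.83% (11.82 to 11.85). Median coverage was 38 and 30 reads in the untreated libraries of day 2 and day 5, and 31 and 32 with vitamin C. A CpG with 0 methylated reads at these medians allows a level of up to 7.89% to 10%, counting 3 reads as the limit. RRBS reads come from PCR and carry no molecular identifiers, so they need not be separate molecules, and every interval and test on reads covers counting error only.

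From 5% upward, the vitamin C level as a share of the untreated level of the same day rose with the level class. CpGs were grouped by their level in the untreated library of the other day, which does not enter the value described. The share is called retained below. No level from before treatment was available here, so a loss and an absent gain cannot be told apart. On day 5, CpGs of 5 to 20% averaged 12.6% untreated and 4.06% with vitamin C, so 32.2% was retained. CpGs of 20 to 40% averaged 41.03% untreated and 19.2% with vitamin C, and retained 46.8%. In the classes of 40 to 60% and 60 to 80%, 61.5% and 74.8% were retained. CpGs of 80 to 95% averaged 90.2% untreated and 77.6% with vitamin C, with 86.0% retained, and those of 95% or above retained 91.02%. Day 2 had the same order, from 56.4% retained at 5 to 20% and 68.7% at 20 to 40% to 93.7% at 95% or above. CpGs under 5%, which are 436425 of the set on day 5, averaged 1.13% untreated and 0.628% with vitamin C. In points, the largest day 5 difference was -24.3, in the class of 40 to 60%. Even CpGs that were nearly always methylated were thus lower with vitamin C, but by fewer points than those of intermediate level.

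**Figure D1:**
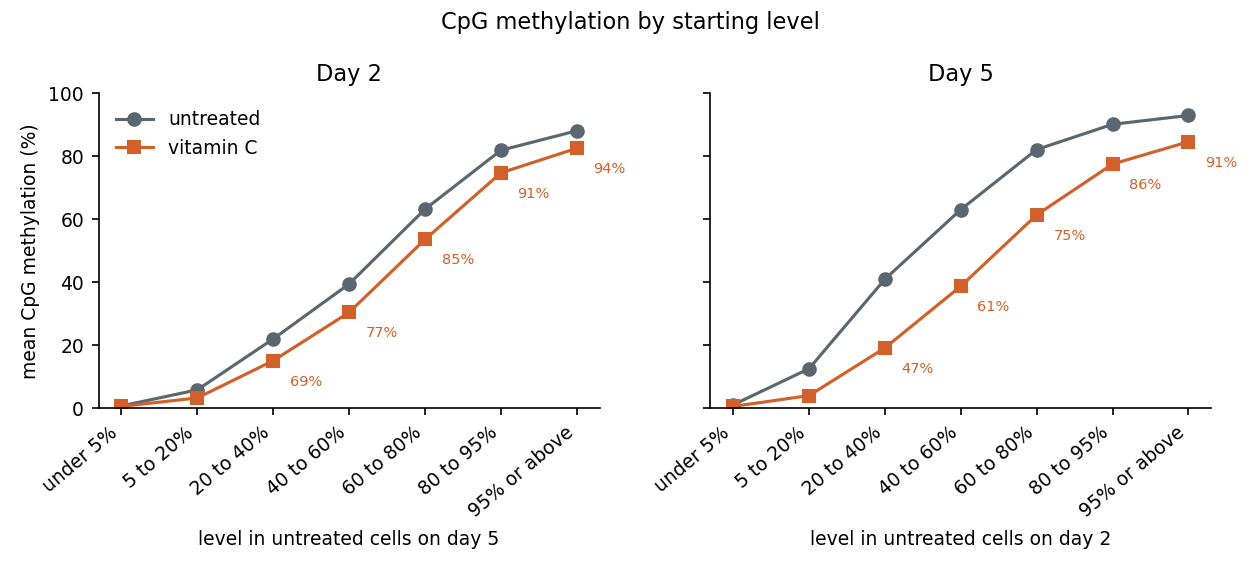
Mean CpG methylation in percent (vertical axis) of the untreated (circles) and vitamin C (squares) library of day 2 and day 5, by level class in the untreated library of the other day (horizontal axis); the printed percentages, from 20 to 40% upward, are the share of the untreated level retained. This share, of the untreated level of the same day, climbs from 46.8% at 20 to 40% to 91.02% at 95% or above on day 5.

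Among well-covered, highly methylated CpGs, large losses on both days were rare. Of 212504 CpGs with at least 30 reads in all 4 libraries, 8494 had 80% or more in both untreated libraries. With vitamin C, 49.99% of these had 80% or more on both days. A level under 60% was seen on day 2 in 334 of them and on day 5 in 437, but in only 82 (0.965%) on both days, and none was under 20% on both days. At 100 reads or more, 57 CpGs had 80% or more in both untreated libraries. They averaged 89.1% and 89.9% untreated on day 2 and day 5, and 85.1% and 85.3% with vitamin C, and 40 of the 57 had 80% or more on both days with vitamin C. CpGs of 100 reads lie far above the median coverage of 30 to 38 reads. Several of the 57 lie in 1 tile, chr7:7230001-7231000 near Vmn2r29, where near-identical gene copies may share reads. Both sets were chosen by their untreated levels, which counting error can raise, so these values describe them and are no measure of loss.

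Single CpGs were called by a two-sided Fisher's exact test at an adjusted p (Benjamini-Hochberg over all CpGs of the day) under 0.05 and a difference of at least 20 points. On day 2, 3129 CpGs were called lower with vitamin C (0.482% of those tested) and 173 higher (0.0266%). On day 5, 19044 were called lower (2.93%) and 28 higher (0.00431%). Called CpGs were thus mostly lower with vitamin C on each day; the test compares 2 libraries, not 2 conditions. On both days 723 CpGs were called lower (0.111%), and 0 were called higher. These 723 averaged 65.1% and 71.0% untreated, and 20.5% and 22.9% with vitamin C, on day 2 and day 5. The 18321 CpGs called lower on day 5 and not on day 2 averaged a day 2 difference of -10.8 points, and 75.5% of them were lower on day 2, 4316 with an unadjusted p under 0.05. All CpGs of 40 to 60% and of 60 to 80% averaged -9.02 and -9.60 on day 2, with 70.2% and 68.7% lower. Conversely, the 2406 called lower on day 2 and not on day 5 averaged -18.2 on day 5, where 88.7% were lower. Being called on 1 day is therefore no measure of a difference between days. Of the 723, 129 lay within 100 bases of another, and the 723 fell in 643 tiles of 1 kb. The same counts were not made over all CpGs, so they are no measure of grouping.

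CpGs were also averaged, as percentages, in 52286 windows of 1 kb (tiles) that held 3 or more of them. Of all tiles, 5.65% were 20 or more points lower with vitamin C on day 2 and 19.5% on day 5. A level of 40% or more in both untreated libraries, from which a large loss is possible, was found in 24006 tiles, and in these the shares were 10.8% and 31.7%. On both days 1612 tiles were 20 or more points lower (6.71%). They averaged 67.8% and 75.4% untreated and 40.5% and 41.1% with vitamin C, so they were already low on day 2 and as low on day 5. Another 3436 (14.3%) were 20 or more points lower on day 5 and within 10 points on day 2. In this class the untreated mean went from 69.1% to 82.03%, higher by 12.9, and the vitamin C mean from 66.4% to 52.9%, lower with a difference of -13.5. The reverse, lower on day 2 only, was seen in 386 tiles. A tile was called resistant where both untreated libraries had 60% or more and both days differed by no more than 10 points, which held for 6302 of 19884 tiles at that level. Resistant tiles averaged 84.9% and 87.5% untreated and 83.1% and 83.8% with vitamin C. Only 9 tiles were 10 or more points higher on both days. These classes were made from the differences themselves, so their means describe them and support nothing.

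**Figure D2:**
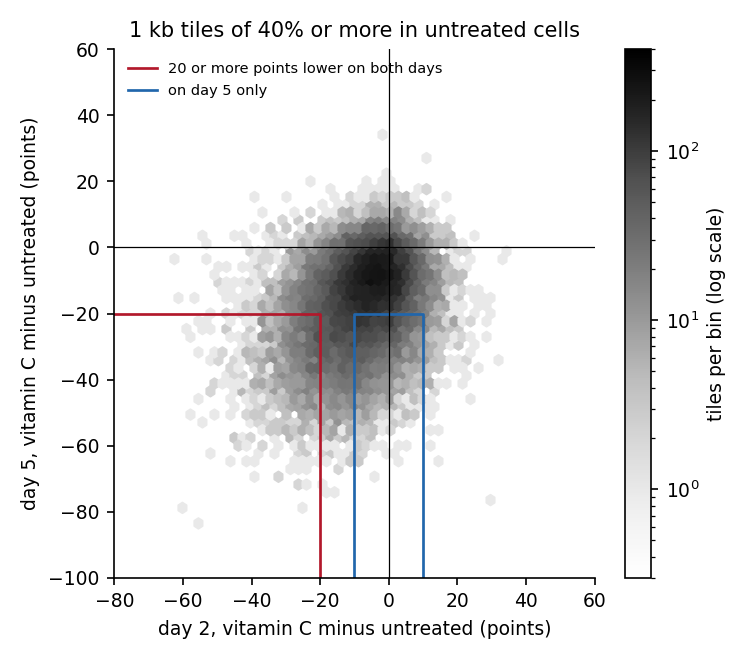
Difference of vitamin C from untreated in percentage points on day 2 (horizontal axis) and day 5 (vertical axis) for the 24006 tiles of 40% or more in both untreated libraries; shade is the number of tiles per bin on a log scale. The red corner holds the 1612 tiles lower on both days and the blue box the 3436 lower on day 5 only, and neither is separate from the bulk of the tiles.

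**Figure D3:**
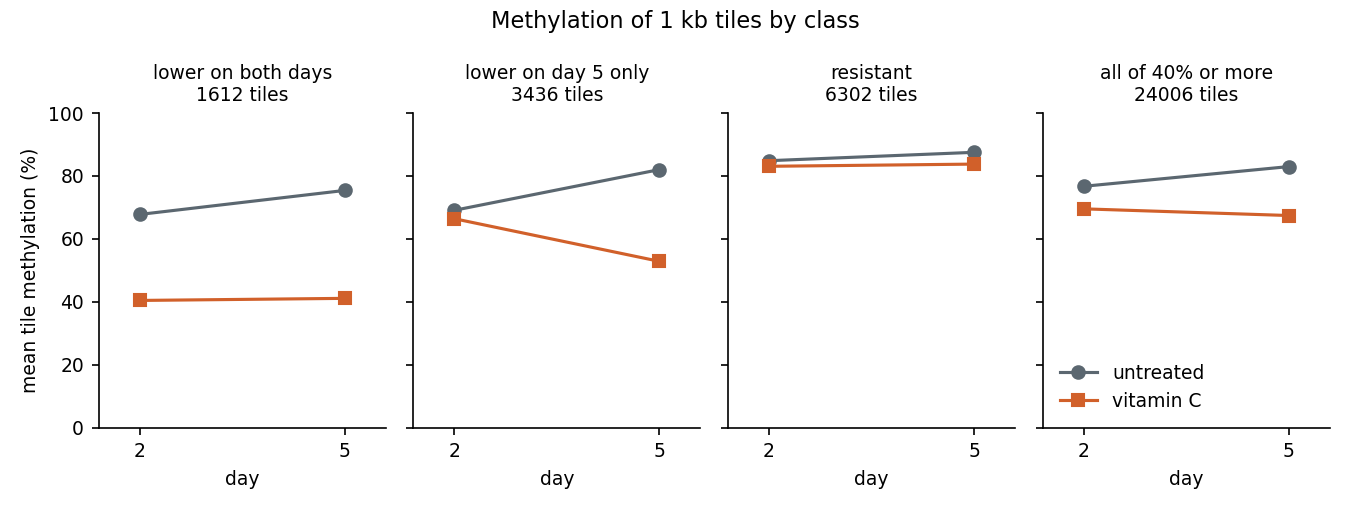
Mean methylation in percent (vertical axis) of the untreated (circles) and vitamin C (squares) library on day 2 and day 5 (horizontal axis) for each tile class and for all tiles of 40% or more. In the class lower on day 5 only the untreated mean rises to 82.03% while the vitamin C mean falls to 52.9%.

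Whether a tile differed between days was tested on the difference of the 2 differences, with reads per CpG as the number of observations, since neighbouring CpGs share reads. Of 52286 tiles, 5 passed an adjusted p of 0.05 (0.00956%), and 1723 had an unadjusted p under 0.05. None of the 3436 tiles of the day 5 class passed, and 670 of them (19.5%) had an unadjusted p under 0.05, against 3.3% of all tiles. The class was chosen by the differences that are tested, so counts within it are no support for it. Over tiles of 40% or more, the spread of this difference (SD 13.7 points) was below its median counting error of 16.0 points, so this error is too wide for the typical tile and the test makes few calls. With all reads of a tile counted as independent, 7523 tiles passed, 2022 of them in the day 5 class. How many tiles differ between days thus rests on how shared reads are counted. With reads per CpG, simulated data gave back 13% of tiles changed by 40 points on 1 day and 51% at 60 points. The simulation let the CpGs of a tile share all their reads. Its error is thus wider than the spread seen here, and its recovery need not hold for these data. In the same simulation 5 unchanged tiles were called. The tile with the largest difference that passed was chr5:145947001-145948000. Its 4 CpGs averaged 40.6% and 90.6% untreated and 69.1% and 13.6% with vitamin C on day 2 and day 5, with 20.5 to 41.2 reads per CpG. The order of the treatments was thus opposite on the 2 days, in each of the 4 CpGs, and its adjusted p was 6.34e-08.

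Tiles on chromosome 18 were left out of the naming of tiles. Among the rest, the 5 tiles with the largest loss on both days were taken at 20 or more reads per CpG. They had differences of -56.2 to -43.7 on day 2 and of -59.8 to -44.0 on day 5. The first, chr1:107678001-107679000, had its centre 1201 bases from the placed start of Tnfrsf11a, which encodes RANK, the receptor of the cytokine RANKL. Its 3 CpGs averaged 62.1% and 64.4% untreated on day 2 and day 5, and 11.9% and 14.95% with vitamin C. All 3 of these CpGs were called lower on both days. The tile chr6:52159001-52160000, centred 830 bases from the placed start of the homeobox gene Hoxa6, averaged 72.5% and 73.4% untreated and 28.75% and 13.6% with vitamin C over 5 CpGs. Its 5 CpGs were all called lower on day 5, and 2 of them on day 2. The other 3 tiles had no placed start within 5 kb. In chr11:26826001-26827000 the 4 levels were 75.8% and 89.2% untreated and 19.6% and 43.3% with vitamin C. In chr4:107752001-107753000 they were 77.8% and 81.9% untreated, against 32.4% and 33.3%, and in chr1:155425001-155426000 76.1% and 84.02% against 30.6% and 39.98%. In each of these 5 tiles both vitamin C levels lay below both untreated levels.

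Outside chromosome 18, the largest differences between days in the class lower on day 5 only are given as values. None passed the test, and they were chosen after their values were seen. In chr1:30891001-30892000, 3 CpGs averaged 60.9% and 82.6% untreated and 65.7% and 23.5% with vitamin C on day 2 and day 5. Its unadjusted p for the difference between days was 2.86e-05 and its adjusted p 0.150. In chr7:83100001-83101000, 4 CpGs averaged 82.1% and 90.9% untreated and 85.2% and 38.1% with vitamin C. In chr2:130517001-130518000 the levels were 69.7% and 81.8% untreated against 61.3% and 17.2%. The choice itself favours tiles with a high untreated and a low vitamin C value on day 5.

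Resistant tiles were named by the number of their CpGs, with chromosome 18 left out. The tile chr7:7230001-7231000, centred 499 bases from the placed start of the vomeronasal receptor gene Vmn2r29, held 20 CpGs. It averaged 75.8% and 74.7% untreated and 69.8% and 67.8% with vitamin C, with 181 to 243 reads per CpG. This receptor family has many near-identical copies, so reads may be shared between them. With pooled reads its differences were -2.88 and -2.08. In chr2:174878001-174879000, 19 CpGs averaged 94.5% and 91.7% untreated and 91.2% and 88.3% with vitamin C. In chr12:30687001-30688000, 20 CpGs averaged 92.0% and 94.6% untreated and 87.6% and 88.3% with vitamin C. The tiles chr10:79393001-79394000 (20 CpGs) and chr8:48732001-48733000 (19 CpGs) differed by 0.503 and -7.29 points on day 2 and by -6.80 and -7.10 on day 5. Of these 10 differences, 9 were below 0, and all 10 lay within their 95% counting intervals around 0. Single CpGs could still be called: in chr10:79393001-79394000, 1 CpG called lower on day 5 stood at 92.9% untreated and 50% with vitamin C. In chr8:48732001-48733000, 1 such CpG stood at 100% and 57.9%. No CpG of the other named resistant tiles was called. The tiles were chosen to differ by no more than 10 points, so this describes them and is no support for resistance.

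Tiles near an unmethylated tile had a larger loss with vitamin C than distant tiles of the same untreated level class. Of the tiles lower on both days, 9.93% lay within 2 kb of a tile under 10% in all 4 libraries, against 5.06% of those lower on day 5 only, 1.92% of the resistant and 4.08% of all tiles of 40% or more. The classes differ in level, so level was held fixed by the untreated library of the other day. On day 5, tiles of 60 to 80% within 2 kb of a low tile averaged -23.5 points (SD 13.1 over 381 tiles), and those over 10 kb away -17.9 (SD 13.5 over 6009 tiles). For tiles of 80 to 95% the values were -14.9 and -11.1, and for 40 to 60% they were -26.4 and -23.7. On day 2 the corresponding values at 60 to 80% were -10.9 and -8.32. The near tiles thus had the larger loss in each of these level classes on both days, and tiles are not replicates. The number of CpGs in a tile gave no single order: on day 5, tiles of 3 to 5 CpGs averaged -18.2 at 60 to 80% and -11.4 at 80 to 95%, and those of 11 or more -22.3 and -10.4. Tiles within 5 kb of a placed promoter averaged -20.3 at 60 to 80% on day 5, and those over 50 kb away -17.9. Tiles within 5 Mb of the last tile of a chromosome averaged -17.7 at 60 to 80% on day 5, against -18.5 elsewhere.

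**Figure D4:**
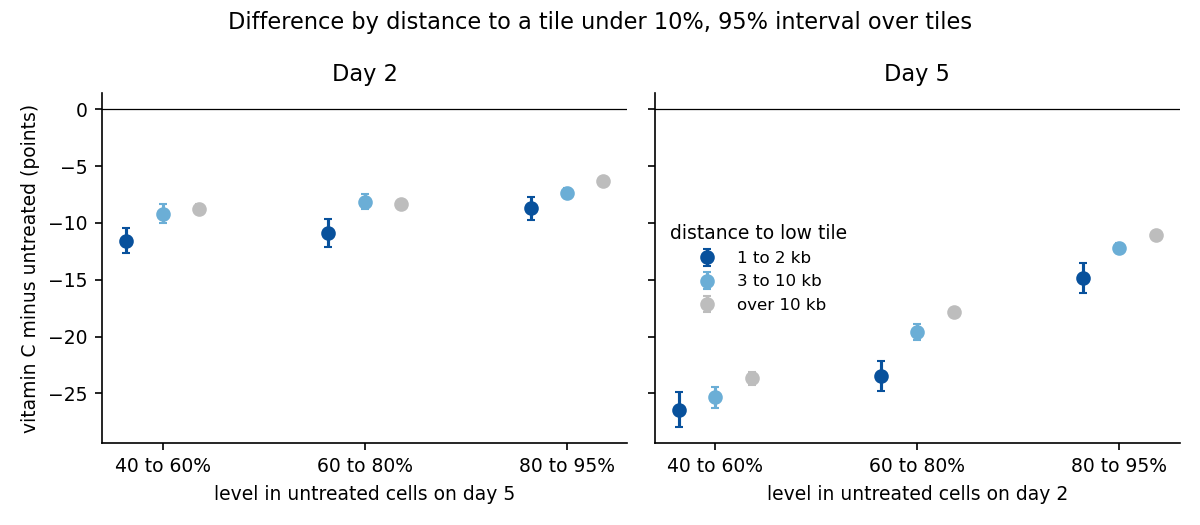
Mean difference of vitamin C from untreated in percentage points (vertical axis) by level in the untreated library of the other day (horizontal axis) and distance to the nearest tile under 10% in all 4 libraries; bars are 95% intervals from the SD over tiles, which are not replicates. Tiles at 1 to 2 kb lie lowest in the 3 level classes shown, at -23.5 against -17.9 over 10 kb on day 5 at 60 to 80%.

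Loss on day 2 went with larger loss on day 5. Tiles were chosen by their day 2 difference, described by their day 5 libraries, and set beside all tiles of the same untreated level on day 2. At 60 to 80%, the 964 tiles that were 20 or more points lower on day 2 averaged 77.4% untreated and 48.5% with vitamin C on day 5, a difference of -28.9 points. All 7678 tiles at that level averaged -18.4, and the 4600 tiles within 10 points on day 2 averaged -15.4. At 80 to 95% the values were -18.1, -11.3 and -9.82. Noise in the day 2 untreated library enters both the choice and the level class. Over the 24006 tiles of 40% or more, the day 2 and day 5 differences had Pearson's r = 0.318 and Spearman's rho = 0.297 across tiles, which share their libraries and are not replicates. Over the 548 tiles with 40 or more reads per CpG, r was 0.398.

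A fit over both days in limma, with day as a block and 1 residual degree of freedom, called 84 tiles lower (0.161%) and 0 higher (0%) at an adjusted p under 0.05 and a mean difference of at least 10 points. Without adjustment, 10697 lower and 368 higher tiles had p under 0.05. Of the 84, 31 were among the 1612 tiles lower on both days, a class made from the differences that limma tests. Another 48 were among 28278 tiles with under 40% in an untreated library, of 52286 tiles in all. The share of the first group was above that of all tiles, which its choice favours, so it is no support for the class. The share of the second was close to that of all tiles. The count of 84 rested on the scale: it was 0 with a pseudocount of 0.5 read, 3636 with 5 reads, 0 on percentage points and 0 without the day term. The lowest adjusted p was 0.00890, at chr4:57858001-57859000, whose 4 CpGs averaged 89.8% and 98.7% untreated and 34.8% and 15.3% with vitamin C. Of the 5 tiles named for loss on both days, those near Tnfrsf11a and Hoxa6 passed in limma (adjusted p 0.0476 and 0.0461), and the other 3 did not (0.0506, 0.0578 and 0.0581). These 5 were chosen by the differences that limma tests, so passing is no support for them. The median vitamin C term over all tiles was -0.79 on the log2 odds scale. Centring each library to one median moved it to 0.50 and gave 3 tiles lower and 1 higher. Such centring shifts all tiles of a library alike, so the change in direction is set by the scaling.

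Promoters were placed on mm9 by the spacing of their CpGs, and 5803 genes had values over at least 3 CpGs. Most, 5579 (96.1%), were under 5% in all 4 libraries and had little to lose. In either untreated library 69 had 20% or more. Of these, 63 were lower with vitamin C on both days (29.5% of all 5803 were), 30 by 10 or more points on both (0.551% of all) and 14 by 20 or more on day 5 while within 10 on day 2 (0.241% of all). The level that chose the 69 enters their differences, so these counts describe them and are no support for a loss. A choice by the untreated library of one day and a description by the libraries of the other, added after the data were seen, avoids this. Of the 42 promoters with 20% or more in the untreated library of day 2, 39 were lower with vitamin C on day 5, with a median difference of -19.4 points. Of the 68 chosen on day 5, 64 were lower on day 2, with a median difference of -9.71. A CpG called lower was present in 12 of the 69 on day 2 and in 41 on day 5, against 16 (0.276%) and 72 (1.24%) of all 5803. Of the 10 with 60% or more in both untreated libraries, 4 were within 10 points on both days.

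The germline list held 47 genes that act in germ cells, and 11 had a promoter placed by the main rule, of which 6 had 20% or more. The 6 were chosen by their untreated level, and Mael, Sohlh2 and Dmrtb1 passed only on day 5. Their differences were -25.9 to -4.61 points on day 2 and -29.5 to -13.6 on day 5. Chosen by day 2 alone there were 3, and their day 5 differences were -29.5 to -25.5. A CpG called lower was present in 1 of the 6 on day 2 and in 5 on day 5, beside 12 and 41 of the 69 promoters of that level and 0.276% and 1.24% of all. Sycp1 averaged 59.7% and 71.6% untreated on day 2 and day 5 and 33.8% and 42.5% with vitamin C. All 8 of its CpGs, which lie 49 to 97 bases before the start, were lower on both days. Hormad1 averaged 35.5% and 47.2% untreated and 25.9% and 17.7% with vitamin C over 11 CpGs. Its CpG 186 bases before the start stood at 43.6% and 83.3% untreated and at 44.8% and 25.0% with vitamin C, a difference of 1.19 and -58.3, and the CpG 147 bases before differed by -31.8 and -29.6. The difference between days was not tested for single CpGs. The testis ADP/ATP carrier gene Slc25a31 averaged 30.5% and 42.1% untreated and 25.9% and 16.6% with vitamin C, and is 1 of the 14 promoters above that were within 10 points on day 2. Mael, of the piRNA pathway, averaged 11.2% and 21.02% untreated and 4.21% and 3.16% with vitamin C. Dmrtb1 and Sohlh2, transcription factors of germ cells, stood at 25.9% and 24.2% in untreated cells and at 12.3% and 6.01% with vitamin C on day 5. On day 2 they stood at 19.3% and 18.9% untreated and at 9.18% and 4.78% with vitamin C. Over the CpGs with at least 20 reads, the differences of Sohlh2 went from -14.1 to -6.76 on day 2 and from -18.2 to -8.89 on day 5. The glycerol-phosphate acyltransferase gene Gpat2 averaged 9.32% and 16.3% untreated and 1.03% and 4.66% with vitamin C, and the germ cell helicase gene Ddx4 8.49% and 10.1% against 3.18% and 3.54%. The remaining 3 of the 11, Zfp37, Ddx25 and Smc1b, were under 5% in all 4 libraries. A looser placement added 3 germline promoters of that level. Asz1 averaged 60.9% and 78.2% untreated and 39.1% and 28.2% with vitamin C, the largest day 5 difference of the 9 at -49.96. Its CpG 98 bases before the start stood at 62.5% and 92.9% untreated and at 8.33% and 23.5% with vitamin C. Tuba3a, a testis tubulin, differed by -21.6 and -27.7, and Tex101, a testis glycoprotein, by -5.17 and -13.3. The E-box CACGTG, which reads alike on both strands, was in 4 of these 9 promoter sequences of 300 bases, among them Sycp1, in 9.30% of the 215 placed promoters of 20% or more, in 10.8% of placed promoters under 5%, and in 7.15% of all 32851 RefSeq promoter sequences of that length. The sets differ in their number of CpGs, with medians of 21, 11, 27 and 7, and their difference was not tested.

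**Figure D5:**
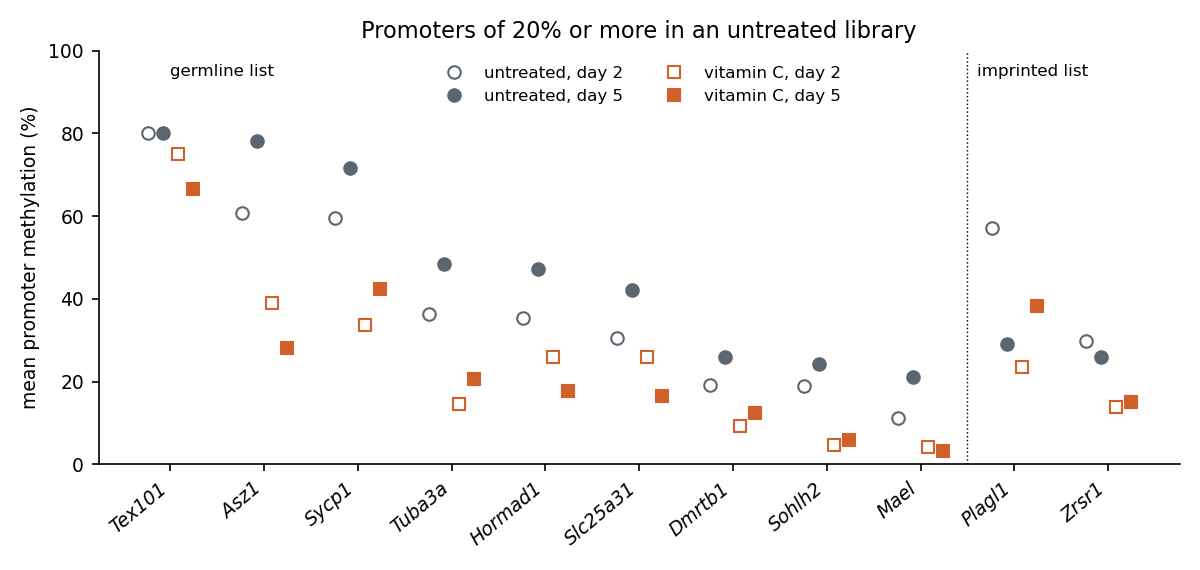
Mean promoter methylation in percent (vertical axis) in the untreated (circles) and vitamin C (squares) library of day 2 (open) and day 5 (filled), for the promoters of the germline and imprinted lists with 20% or more in an untreated library. Each germline promoter has both vitamin C values below the untreated value of the same day, as does Zrsr1, while Plagl1 does so on day 2 only.

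Of 30 imprinted genes, 7 promoters were placed and 2 had 20% or more. Plagl1, an imprinted zinc finger gene whose CpGs here are shared with the transcript Hymai, averaged 57.3% and 29.2% untreated and 23.6% and 38.3% with vitamin C. The difference was -33.7 on day 2. On day 5 it was 9.13, but -10.6 over the CpGs with at least 20 reads, so its direction rests on the 4 CpGs 33 to 49 bases after the start, which had 15 to 16 vitamin C reads. The difference between days had an unadjusted p of 0.00616. No promoter passed this test after adjustment over 7195. All 9 CpGs of Plagl1 were lower on day 2 and 4 of 9 on day 5, and the untreated levels of day 2 and day 5 were 57.3% and 29.2%. Zrsr1 averaged 29.9% and 26.0% untreated and 14.0% and 14.98% with vitamin C. The 4 imprinted promoters Gnas, Igf2, Grb10 and Igf2r were under 5% in all 4 libraries, and Mcts2 averaged 19.7% and 16.7% untreated and 22.02% and 12.9% with vitamin C.

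Few promoters were placed of the pluripotency list (4 of 26 genes), the lineage list (3 of 16) and the list of methylation machinery (11 of 24). All of these were under 5% in all 4 libraries, as were 96.1% of all promoters placed, so this sets no list apart. Tet2 stood at 0.464% and 0.167% untreated and at 0.514% and 0.291% with vitamin C over 54 CpGs. Dnmt1, the maintenance methyltransferase, stood at 0.395% and 0.682% untreated and at 1.13% and 0.594% with vitamin C. Promoters outside these lists held the other large losses. Atcayos, a non-coding gene placed at chr10:80657186-80657485, averaged 44.9% and 63.6% untreated and 18.4% and 18.5% with vitamin C over 8 CpGs. Atf7ip averaged 30.1% and 32.7% untreated and 5.37% and 1.296% with vitamin C over 12 CpGs, which it shares with Gm44140. All 12 were lower on both days, and on day 5 none was above 6.90% with vitamin C. Mir1a-1hg, which hosts a muscle microRNA, averaged 39.6% and 55.3% untreated and 15.6% and 14.8% with vitamin C. Cyp2r1, a vitamin D 25-hydroxylase, averaged 22.9% and 22.2% untreated and 4.36% and 2.79%, and the homeobox gene Barhl1 36.8% and 32.3% against 21.4% and 9.60%. Fam181a, C130026L21Rik and Miip differed by -18.6, -16.4 and -15.4 on day 2 and by -27.3, -35.4 and -17.4 on day 5. At 20 reads the day 2 difference of Fam181a was -31.6 and that of C130026L21Rik -10.9.

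The promoters 20 or more points lower on day 5 and within 10 on day 2 are given as values, since none passed the test between days. C1qtnf2, a secreted protein of the C1q and TNF family placed at chr11:43287558-43287857, averaged 7.37% and 30.2% untreated and 11.9% and 7.70% with vitamin C over 5 CpGs. Thbs4, which encodes thrombospondin 4, averaged 14.3% and 30.7% untreated and 22.0% and 10% with vitamin C, at 13 to 17.2 reads per CpG. The choice by these differences favours a high untreated and a low vitamin C value on day 5. Gm33434 and Gm15455 differed by -5.88 and -5.23 on day 2 and by -29.5 and -27.9 on day 5. The 4 resistant promoters belonged to predicted or antisense genes. Gm16059 averaged 82.02% and 83.2% untreated and 75.02% and 77.9% with vitamin C over 7 CpGs. Of these, 1 CpG, 181 bases before the start, was at 0 in all 4 libraries, and the other 6 were at 68.75% or above. At 20 reads its differences were -2.18 and -3.51. Gm31129 averaged 72.4% and 84.4% untreated and 63.6% and 74.6% with vitamin C, and Gm31579 90.7% and 91.9% against 95.4% and 95.4%. Aknaos averaged 88.9% and 90.3% untreated and 88.2% and 81.0% with vitamin C over 3 CpGs. Of the 4 resistant promoters, only Gm31129 held a CpG called lower, 1 of its 8 on day 5.

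The looser placement brought in more promoters of few CpGs and high methylation. Of 7195 promoters, 215 had 20% or more in an untreated library, 172 of them were lower with vitamin C on both days and 26 by 20 or more points on both. The median differences were -8.81 and -19.6. The lipase gene Pnliprp2 averaged 48.3% and 71.2% untreated and 23.4% and 19.5% with vitamin C, and 5 of its 7 CpGs were called lower on day 5. Angptl8, a secreted regulator of lipoprotein lipase, averaged 29.9% and 49.1% untreated and 29.4% and 5.88% with vitamin C, and its difference between days had an unadjusted p of 0.0235. The predicted gene Gm33302 averaged 82.1% and 84.8% untreated and 84.1% and 21.7% with vitamin C over 4 CpGs. At 60% or more in both untreated libraries there were 83 promoters, and 26 were resistant. The test between days called 0 of the 7195 promoters, and 15 had an unadjusted p under 0.05.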

How the data were processed

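The 4 libraries were assigned from their labels. The submitters' processing notes name CASAVA, BSMAP 2.88 and build mm9, without their roles. The deposited files give, per CpG, the authors' fraction of methylated reads and the coverage in reads, and neither a header nor a label names a normalization; the lowest coverage was 10. Methylated reads were computed as fraction times coverage. How duplicates and incomplete conversion were treated is not stated.

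Fisher's exact tests per CpG, tiles of 1 kb, the test between days and limma 3.58.1 (R 4.3.3; log2 ratio of methylated to unmethylated reads, pseudocount 1) are described beside their results; other steps used Python 3.11.15 and scipy 1.17.1. Day pairs the libraries. P-values were adjusted over all CpGs, tiles or promoters tested. These tests compare single libraries.

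No mm9 genome or annotation was used. RefSeq promoters (250 bases before to 50 after a start) were placed where at least 8 listed CpGs matched the spacing of their CpGs at 1 place of the chromosome (6711 of 31396 sequences). Of neighbouring pairs, 97.0% kept RefSeq's spacing, and 7 placements out of order were left out. A looser rule, at least 4 listed CpGs and the same spacing to a placed neighbour, kept 2077 of 2316 candidates. Both it and the removal of the 7 were added after the data were seen, and the spacing condition after values of first placements had been seen. What part of a gene a tile lies in was not determined.

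The members, the 5 gene lists and the rules were chosen with earlier results of these data known. Named tiles (20 or more reads per CpG, chromosome 18 left out) were the 5 largest losses on both days and the 5 resistant with most CpGs. Up to 3 gains and 5 losses of day 5 only that passed the test between days were also to be named, of which there were 0. The 5 day 5 tiles named without passing and the 5 tiles of other classes that passed were added after values were seen. Named promoters were the 10 largest losses, 5 of day 5 only, the resistant ones and list members of 20% or more.

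In simulated reads over 649663 CpGs with few changed, the Fisher test of day 5 recovered 7% of CpGs lowered by 40 points and 41% of those lowered by 60, with 0 unchanged called; on day 2 it recovered 10% and 37%. With all CpGs of 20 to 95% lowered by 20 points it recovered 26% and 67% on day 5, and 34% and 76% on day 2. Unchanged CpGs called there were 2 on day 5 and 5 on day 2. The limma fit over 52286 tiles recovered 0% of tiles lowered by 30 or 50 points when the CpGs of a tile shared their reads, with few tiles changed or with all tiles over 40% lowered by 20. It recovered 98% and 100% when each CpG had reads of its own, with 15 unchanged tiles called.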

Additional observations from a re-analysis of the deposited data

Results flagged for a closer look

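Of the 5 tiles whose difference between days passed the test, chr5:145947001-145948000 had a difference between days of -105.5 points and chr7:51856001-51857000 one of -74.6. The latter, 3 CpGs, averaged 31.7% and 59.7% untreated and 69.2% and 22.6% with vitamin C on day 2 and day 5. The other 3 were tiles at 13.0% or less in all 4 libraries with a mean of 1940.3 to 5193.5 reads per CpG, chr13:44965001-44966000 at -9.73 points, chr10:11211001-11212000 at -6.87 and chr3:61963001-61964000 at 7.83. In the tile on chromosome 3, 2 CpGs with 28 reads in the untreated day 2 library stood at 35.7% and 32.1% there, and the other 7 CpGs, with 1750 to 5045 reads, stood at 0.601% to 2.50% in all 4 libraries. The mean coverage therefore overstates the precision of these 3 tiles. With the harmonic mean of coverage, added after the data were seen, only the tile on chromosome 5 passed (adjusted p 6.09e-06), and that on chromosome 7 had an adjusted p of 0.0941.

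In data outside the comparisons, cytosines of the contig named lambda were read as methylated at 0.293% and 0.513% in the untreated libraries of day 2 and day 5, and at 0.317% and 0.504% with vitamin C. Both day 5 libraries were higher than both day 2 libraries. On chromosome X, 7382 CpGs differed by -1.77 points on day 2 and by -3.64 on day 5.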

How the results depend on the processing

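The mean difference kept its sign under all 5 alternatives on both days. On day 2 it was -1.79 with reads pooled, -1.51 and -1.02 at a minimum of 20 and 30 reads, and -2.55 over CpGs listed in the libraries of that day. On day 5 these were -5.86, -3.59, -2.49 and -5.77. Mean untreated methylation of day 5 was 13.7% and 8.86% at 20 and 30 reads, so the sets differ in level. At a minimum of 20 reads the Fisher test called 1837 CpGs lower and 95 higher on day 2, and 10971 and 11 on day 5. Thinned to 20 reads it called 31 and 1 on day 2, 1184 and 1 on day 5, and 2 lower on both days, so depth limits these counts.

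Tile counts moved with the number of tiles. With at least 5 CpGs, 469 tiles were lower on both days, 1158 on day 5 only and 43 on day 2 only, with 2041 resistant and 2 gains; at 20 reads these were 446, 1011, 62, 2128 and 1. As shares of eligible tiles, those lower on both days were 6.43% and 6.10% (6.71% in the report), while those lower on day 2 only went from 1.61% to 0.590% and 0.848%. A loss limit of 15 points gave 3309, 5396 and 865, and one of 30 points gave 293, 1212 and 58. Between days, 7523 tiles passed with summed reads, 4 by log odds ratios and 1 with the harmonic mean of coverage. In limma, tiles called lower were 0 with a pseudocount of 0.5 read, 3636 with 5 reads, 0 on percentage points, 0 without the day term that serves as the replicate block, 270 with at least 5 CpGs and 3 after centring. Tiles called higher were 1 with 5 reads, 1 with at least 5 CpGs and 1 after centring. At 60 to 80%, the extra day 5 loss of tiles lower on day 2 was -10.5 points, and -12.1 at 20 reads. The extra day 5 loss near low tiles was -5.58, and -7.08 in tiles of 300 bases. The looser placement raised the promoters of 20% or more from 69 to 215, of which 80% were lower on both days.

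Of 220 recomputed values of named tiles and promoters, chosen after the data were seen, 212 stayed within counting error of the value. In all, 6 changed sign: 4 in tiles passing the test between days and 2 within counting error, in promoters. On day 2 the tile on chromosome 13 had -0.520 and that on chromosome 3 had 0.0554 with pooled reads; that on chromosome 10 had -0.411 pooled and -0.236 at 20 reads. Plagl1 on day 5 went from 9.13 to -10.6 at 20 reads, and Gm51697 on day 2 from 0.0830 to -2.46 with pooled reads. Leaving out a library was not run, since 3 libraries leave no residual degrees of freedom.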

Other observations

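Of the 643 tiles that held a CpG called lower on both days, 13 held 3 or more, beside 52286 tiles with 3 or more CpGs in all. These 13 were chosen after their values were seen. The most, 5 of 22 CpGs, were in chr17:35562001-35563000, centred 13599 bases from the placed start of H2-Q7, a class I major histocompatibility gene with near-identical copies that may share reads. It averaged 37.2% and 40.8% untreated and 18.1% and 10.6% with vitamin C on day 2 and day 5. In chr6:76447001-76448000, 4 of 5 CpGs were called, and the tile averaged 70.6% and 85.9% untreated and 10.2% and 8.44% with vitamin C. The tile chr2:74513001-74514000, centred 431 bases from the placed start of the homeobox gene Hoxd12, averaged 22.7% and 31.3% untreated and 8.83% and 7.01% over 29 CpGs. The Atf7ip promoter tile and the tile near Tnfrsf11a were also among the 13. In chr19:44055001-44056000, 8 CpGs averaged 32.2% and 59.8% untreated and 4.57% and 9.78% with vitamin C.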
